A study of Mus musculus with 2 samples.

Results

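The transcripts described here are annotated as intron-retaining: their annotated exons cover sequence that other transcripts of the same gene splice out. They were read in total RNA from the left cerebral cortex of 2 male mice of strain B6CASTF1/J, an F1 cross of a C57BL/6 parent and a CAST parent, aged 4 days. Each male gave 1 library from 300 ng of RNA, made by a stranded protocol with reduced ribosomal RNA and with ERCC spike-ins, synthetic RNAs added as a reference. The animals came from The Jackson Laboratory, and the labels number the males apart but place both under 1 donor record. The labels name no treatment, mutation or second group, so the values describe levels and spread and not a contrast. A transcript was taken when GENCODE M21, the annotation of the deposited tables, calls it retained_intron and when its level reached 5 TPM in both libraries in both deposited transcript quantifications. TPM sets a transcript's reads, per base of length, against all transcripts of the library. A total of 1242 of 21848 annotated retained_intron transcripts passed (5.68%), and they lie in 934 genes on 20 chromosomes. They were chosen by level, so the levels that follow are a description and carry no test.

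Introns are cut out of nascent RNA by the spliceosome, and a transcript that keeps one usually gains an early stop codon. Such RNA can be held in the nucleus and spliced later, which is called intron detention, or it can reach the cytoplasm and be degraded by nonsense-mediated decay. Neurons are known to use retained introns to set the level of synaptic and RNA-binding proteins, and splicing factor genes use them to control their own output. Total RNA includes nuclear RNA and RNA still being spliced, and how much of each entered these libraries was not tested.

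Introns held in full by members show what the annotation adds to the RNA. They are printed 5′ to 3′ on the gene's strand as the GENCODE M21 transcripts (mm10) give them, with 10 bases of the neighbouring coding exon on each side. Capitals mark the first 2 and the last 2 bases of the intron and, where one occurs, the first stop codon in the reading frame of the upstream exons. The first 5 belong to members that were the highest transcript of their gene in both libraries and both quantifications, and the last 3 to members of Clk1, Calr and Ddx5. Only introns of at most 300 bases were printed whole.
Prelid1-202, intron 3, chr13:55324445-55324526, plus strand: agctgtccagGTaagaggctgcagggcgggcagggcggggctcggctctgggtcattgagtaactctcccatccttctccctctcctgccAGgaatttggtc
Mrps26-201, intron 2, chr2:130564228-130564307, plus strand: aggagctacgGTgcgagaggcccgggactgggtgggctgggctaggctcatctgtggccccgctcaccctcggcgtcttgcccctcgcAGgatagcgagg
Mrps24-201, intron 1, chr11:5707556-5707623, minus strand: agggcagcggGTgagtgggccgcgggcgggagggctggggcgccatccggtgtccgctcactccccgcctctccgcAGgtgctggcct
Ncl-202, intron 10, chr1:86352320-86352509, minus strand: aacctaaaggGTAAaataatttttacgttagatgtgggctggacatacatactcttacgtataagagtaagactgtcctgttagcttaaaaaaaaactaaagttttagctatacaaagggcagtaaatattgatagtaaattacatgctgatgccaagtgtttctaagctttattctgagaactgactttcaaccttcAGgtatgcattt
Carmil2-201, intron 21, chr8:105690920-105691082, plus strand: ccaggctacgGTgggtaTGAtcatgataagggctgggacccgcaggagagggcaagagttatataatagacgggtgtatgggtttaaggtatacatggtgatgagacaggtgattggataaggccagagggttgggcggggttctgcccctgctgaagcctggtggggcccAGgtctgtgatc
Clk1-204, intron 6, chr1:58417180-58417266, minus strand: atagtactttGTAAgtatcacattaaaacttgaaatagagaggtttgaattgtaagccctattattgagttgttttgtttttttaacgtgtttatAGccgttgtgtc
Calr-204, intron 4, chr8:84844784-84844870, minus strand: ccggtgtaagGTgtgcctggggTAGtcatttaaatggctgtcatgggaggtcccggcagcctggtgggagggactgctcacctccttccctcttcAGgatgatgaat
Ddx5-202, intron 10, chr11:106784019-106784100, minus strand: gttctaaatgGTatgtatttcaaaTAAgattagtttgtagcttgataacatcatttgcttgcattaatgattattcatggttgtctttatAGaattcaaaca
In Ncl-202 and Clk1-204 the stop codon overlaps the splice donor itself, 4 bases into the intron. In Carmil2-201, Calr-204 and Ddx5-202 it ends 10, 15 and 17 bases into the intron. The introns of Prelid1-202, Mrps26-201 and Mrps24-201 hold no stop codon in frame, and their lengths of 82, 80 and 68 bases are not multiples of 3, so reading through them shifts the frame.

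Longer introns are shown by their ends, with 10 exon bases and 20 intron bases, because their splice sites are what the retaining transcript leaves uncut.
Arglu1-204, intron 2 start, chr8:8681468-8683747, minus strand: agccagagagGTaacgctcggtcgtttgga
Arglu1-204, intron 2 end: caacatgtcctcccctttAGgaggaagaga
Srsf7-206, intron 3 start, chr17:80204388-80205261, minus strand: gaagaagcagGTatttaattaatgaaggaa
Srsf7-206, intron 3 end: ttttctaacttaaaaaatAGgtcacgatct
Tcea2-206, intron 6 start, chr2:181686247-181686597, plus strand: atcgaggagtATatcctttgtacagggtat
Tcea2-206, intron 6 end: gggtccttaaacacctgcACgcatcttcct
The intron of Tcea2-206, whose gene encodes a transcription elongation factor, was the only held intron that begins with AT and ends with AC, a class removed by the minor spliceosome. Tcea2-206 stood at 5.77 TPM in replicate 1 and 6.56 TPM in replicate 2.

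The label was then checked against the gene models. Only 437 of the 1242 members (35.2%) hold an intron of a protein-coding transcript of their gene (of any other class where the gene has none) from end to end inside an exon. Another 347 end inside an intron at their 3′ end, 341 begin inside an intron at their 5′ end, 76 do both, and 41 do neither. So 805 members (64.8%) hold no whole intron, and 16 members, 11 of them among the 41, have no base outside the exons of the gene's other transcript classes. For the 805, the name intron-retaining follows the annotation and not a fully kept intron. The other 15526 transcripts of the class in genes at 5 TPM or more were alike in this, since 29.7% of them hold a whole intron. Sequence outside the exons of all other transcript classes of the gene made up 33.7% of a member's length at the median. Members were short, with a median length of 925 bases and a range of 346 to 8950, against 2996.5 bases for protein-coding transcripts that passed the same rule.

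The 437 members with a whole intron hold 604 different introns, 315 members with 1 intron, 85 with 2 and 37 with 3 or more. Most are short: the median was 237.5 bases, and 58.9% were 300 bases or shorter. The other introns of coding transcripts of the same genes, with overlapping alternatives reduced to the shortest, had a median of 874 bases, and 27.5% were 300 bases or shorter. Short introns mark the annotated class and not the expressed part of it, since whole introns of its other transcripts in expressed genes had a median of 238 bases per transcript against 243 for members. Of the 604 introns, 549 lie between coding exons, 29 in 5′ UTRs, 12 in 3′ UTRs and 14 in noncoding reference transcripts. A total of 594 begin with GT and end with AG, and 5 begin with GC and end with AG. The last intron of a gene was held 54 times among 599 introns of genes with several introns (9.02%), against 12.2% if introns were held evenly along those transcripts. The first intron was held about as seldom, 52 times (8.68%). GC content at the median was 52.9% in the introns and 54.4% in the rest of the member.

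**Figure D1:**
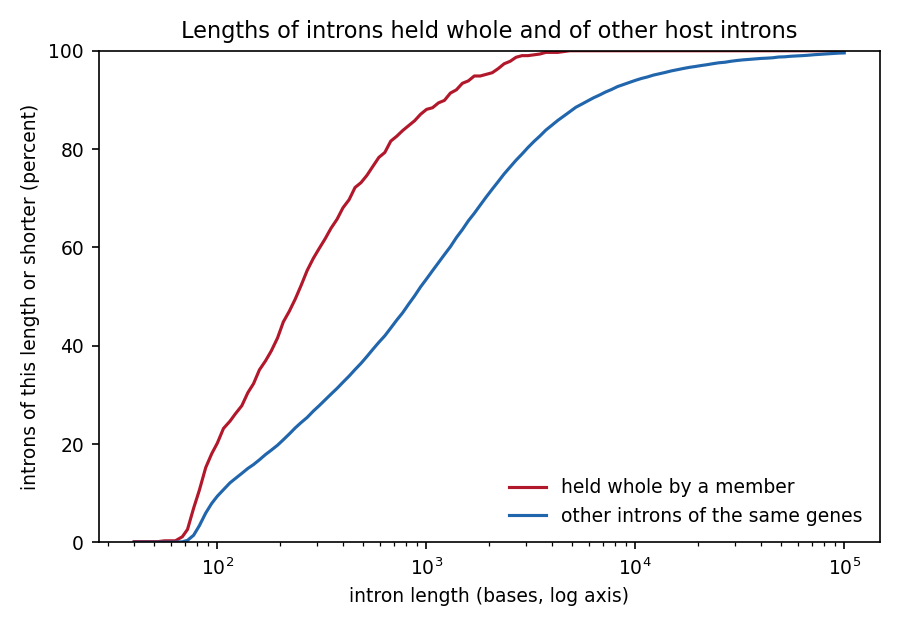
Cumulative percent of introns (vertical axis) at or below a length in bases (horizontal log axis), for the 604 introns held whole by a member and the other introns of the same genes with overlapping alternatives reduced. The curve of held introns lies to the left, at 58.9% by 300 bases against 27.5%.

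An in-frame stop codon lay inside 464 of the 525 coding introns whose frame could be read, which is 88.4% (95% Wilson interval 85.4 to 90.8%). The stop came early, at a median of 38 bases from the donor. The 61 coding introns without a stop were short, with a median of 96 bases, and 16 of them have a length that is a multiple of 3. Held in full, those 16 would add amino acids and leave the frame intact, as background on the genetic code gives it, while protein was not measured here.

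Host genes were mostly protein-coding, 921 of 934, and 13 were processed_transcript genes. A single member was found in 711 genes, 2 members in 165 genes, 3 in 40 and 4 or more in 18. The hosts with the most members were Snrnp70, Ptprs and Eif4a2 with 6 each, and L1cam and Tcf4 were among those with 5. Snrnp70 encodes the main protein of the U1 particle, which recognises splice donors. Its 6 members ranged from 6.39 TPM for Snrnp70-202 to 31.91 TPM for Snrnp70-216 in replicate 1, and all 9 retained_intron transcripts of the gene together took 56.3% of it in replicate 1 and 59.9% in replicate 2. L1cam encodes an axon adhesion molecule, and its class share was 38.6% in replicate 1 and 38.5% in replicate 2. Ptprs, a receptor phosphatase of growth cones, stood at 32.3% and 27.7%. Several members of 1 gene share exons and reads, so they are not independent observations.

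The share a member took of its gene's TPM, as the authors' tables give it in percent, is the central measurement. The median over members was 12.995% in replicate 1 and 12.8% in replicate 2, and 12.6% as a mean of both animals when recomputed from the other quantification. The quartiles were 7.10 and 21.9%, and the range ran from 0.195 to 96.2%. By mean share, 189 members took less than 5% of their gene, 287 took 5 to 10%, 411 took 10 to 20%, 309 took 20 to 50% and 46 took 50% or more. Protein-coding transcripts that passed the same rule took 55.7% at the median, transcripts annotated for nonsense-mediated decay 23.7% and processed_transcript models 19.6%. Summed over all retained_intron transcripts, the class took 28.3% of a host gene at the median, and coding transcripts took 63.4%. In 209 of the 934 hosts the class exceeded the coding transcripts in both libraries. Across the library the whole class took 5.24% of the TPM in replicate 1 and 4.82% in replicate 2, and 8.90% and 8.58% in the other quantification. Members supplied 33.6% and 34.7% of the class's alignment-based TPM. In bulk tissue a share cannot say whether few cells carried much of a transcript or many cells carried little, since fewer cells of a type and less RNA per cell cannot be told apart.

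**Figure D2:**
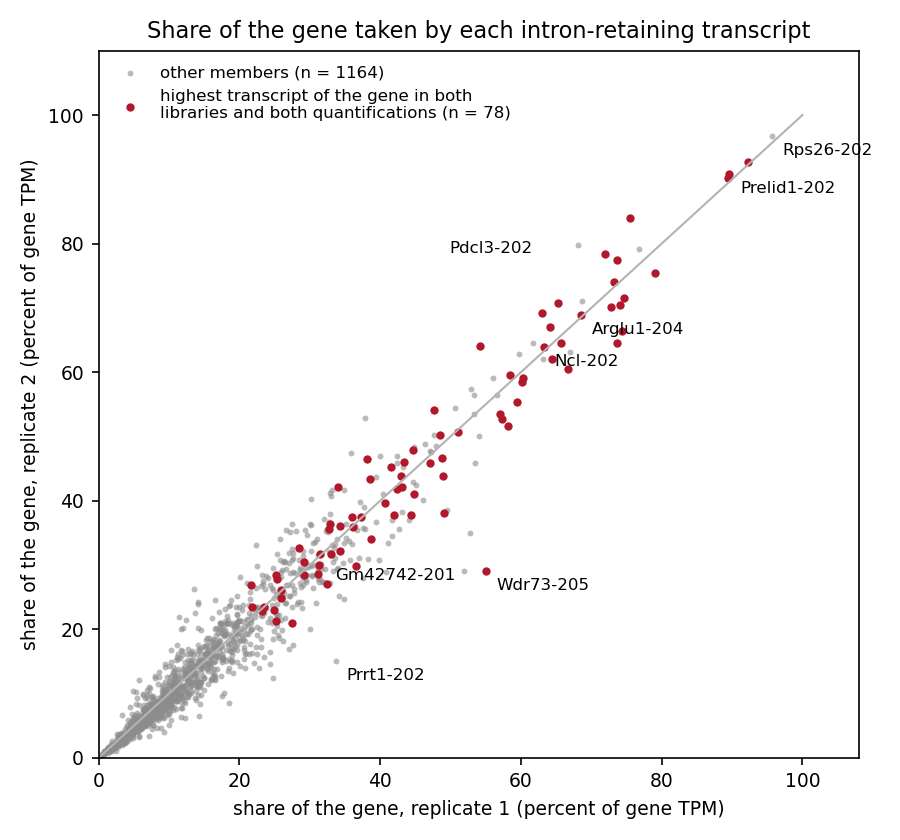
Share of the gene in replicate 1 (horizontal, percent of gene TPM) and replicate 2 (vertical), 1 point per member, n = 1242, from the alignment-based tables. Red points are the 78 members that were the highest transcript of their gene in both libraries and both quantifications, and Prrt1-202, at 33.8% and 15.0%, is far below the diagonal.

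A share of 50% or more in both libraries was rare. It was found for 45 members (3.62%, against 45.8% of the 13560 transcripts of any class that passed the rule). A further measure was whether the member was the highest transcript of its gene in both libraries. This held for 133 members (10.7%, against 60.2% of passing transcripts), for 120 in the other quantification and for 78 in both quantifications. Among these 78, 33 hold a whole intron and 30 begin inside an intron.

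The members with the highest shares are given one by one, and their genes were picked by share and stand for no group. Prelid1 encodes a lipid carrier of the mitochondrial intermembrane space. Prelid1-202 (chr13:55322019-55325269) stood at 81.7 TPM in replicate 1 and 84.0 TPM in replicate 2, which was 90.2% ± 0.834 (SD, n = 2) of the gene, and at 76.6% ± 0.937 in the other quantification. The gene's highest coding transcript, Prelid1-201, stood at 9.45 and 8.51 TPM. The retaining model was thus above the coding one in each animal by more than the animals differed from each other. Prelid1-202 has 1204 bases against 2644 for Prelid1-201, and 82 of them (6.81%) lie outside the exons of the gene's other transcript classes. Of its stretches of 31 bases, 38.1% also occur in other genes. Mrps26 and Mrps24 encode proteins of the small mitochondrial ribosomal subunit. Mrps26-201 took 89.5% and 90.2% of its gene, and Mrps24-201 took 74.1% and 70.4%, though only 8 stretches of 31 bases occur in Mrps24-201 and in no other annotated transcript. Mrpl57-202, of a large mitochondrial subunit gene, took 92.3% and 92.7% and begins inside an intron. Prelid1, Mrps26 and Mrpl57 have 2 annotated transcripts each. The coding models are longer: Mrps26-202 has 4278 bases against 1057 for Mrps26-201, and Mrpl57-201 has 2877 against 519 for Mrpl57-202. How reads of shared exons were divided between the models was not tested. Ndufb4-202, of a subunit of respiratory complex I, took 75.5% and 83.9%, while the 11 members in respiratory chain genes had a median share of 8.78%. Ndufb4-202 also begins inside an intron, and 41.4% of its stretches of 31 bases occur in other genes too. Carmil2-201, of an actin capping regulator, took 71.9% and 78.3%, with 14.1 and 14.6 TPM.

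Cytoplasmic ribosomal protein genes gave the highest levels, and there the quantifications parted. Rps26-202 (chr10:128624534-128626424) stood at 311 TPM in replicate 1 and 290 TPM in replicate 2, the highest alignment-based mean of any member, and took 95.7% and 96.7% of the gene. In the other quantification its level was alike, 323 and 337 TPM, yet its share was 39.9% and 42.4%, because the coding transcript Rps26-201 stood at 483 and 457 TPM there against 10.99 and 7.90 TPM. Which table is closer to the true level was not tested. Rps16-203 stood at 308 and 281 TPM, 64.3% and 62.0% of its gene, and took 84.8% and 83.2% in the other quantification. Rps16-203 begins inside an intron and holds no whole intron, and 74.8% of its stretches of 31 bases also occur in other genes. Rps20-201 stood at 213 and 235 TPM, 76.8% and 79.2% of its gene, and 47.5% and 40.8% in the other. The coding transcript Rps20-203 has 3706 bases, and how reads of shared exons were divided was not tested. Of 25 members in these genes, the median share was 4.54%, so Rps26-202, Rps16-203 and Rps20-201 lay far above most of their group.

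**Figure D3:**
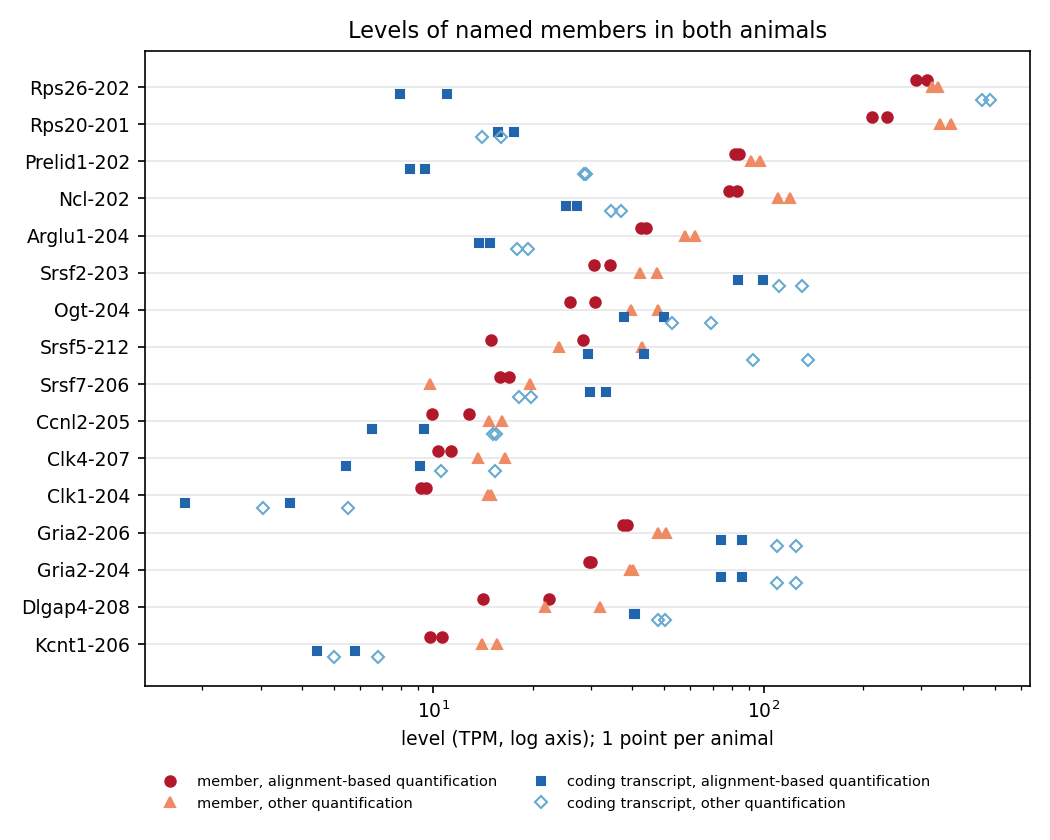
Level in TPM (horizontal log axis) of 16 named members and of the protein-coding transcript of each gene that was highest in the alignment-based tables, 1 point per animal, in both quantifications. Members of Prelid1, Ncl, Arglu1, Clk1 and Kcnt1 lie above the coding transcript in each animal and each quantification, while those of Srsf2 and Gria2 lie below it.

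Genes known from earlier work for detained or regulated introns were examined as a list. Of its 17 genes at 5 TPM or more with an annotated retained_intron transcript, 12 hold a member (70.6%), against 14.4% of all 6471 such genes. These 12 genes hold 19 members, and 9 of the 19 hold a whole intron. The list was drawn up with results of these data known, and its genes were high, with a median gene level of 101.9 TPM against 27.0 TPM. Arglu1, which encodes a splicing and transcription cofactor, held the top share in it. Arglu1-204 (chr8:8666576-8690104) stood at 42.5 and 44.0 TPM, 68.6% and 68.9% of the gene, and 52.5% and 53.0% in the other quantification. Its coding transcript Arglu1-201 stood at 14.9 and 13.7 TPM. The intron it holds is 2280 bases long, and 1913 stretches of 31 bases in Arglu1-204 occur in no other annotated transcript.

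Clk1 and Clk4 encode kinases that phosphorylate SR proteins, and introns of Clk1 are known to stay in nuclear RNA. Clk1-204 holds introns 3, 4 and 6, of 871, 387 and 87 bases. It stood at 9.49 and 9.20 TPM, 18.4% and 17.9% of the gene, while the highest coding transcript Clk1-201 stood at 3.67 and 1.77 TPM. Summed over 7 retained_intron transcripts, the class took 49.1% and 55.8% of Clk1, and coding transcripts took 7.09% and 3.44%. Clk4-207 stood at 10.3 and 11.3 TPM, and the class took 57.3% and 51.9% of Clk4. In Ccnl1 and Ccnl2, which encode cyclins of splicing kinases, the class took 62.6% and 59.8% and 64.7% and 59.2%. Kinase and cyclin L genes hosted members in 5 of 10 cases, with a median share of 18.7% over 8 members.

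Ogt encodes the enzyme that adds N-acetylglucosamine to nuclear proteins and is known for an intron whose removal follows that sugar. Ogt-204 stood at 30.9 and 25.8 TPM, 27.2% and 28.7% of the gene, and 34.3% and 34.0% in the other quantification. Tia1, a stress granule gene, holds 4 members, each between 5.44 and 10.55 TPM, and the class took 61.3% and 60.3% of it. Mat2a-205, of the methionine adenosyltransferase that makes S-adenosylmethionine, was near the threshold at 5.21 and 6.70 TPM.

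SR proteins bind exons and direct splice site choice, and the list called SR proteins here also counts related factors such as Srrm1, Srrm2, Son and Acin1. Its genes hosted members more often than those of any other list of 10 or more genes. Among 15 genes considered, 13 hold a member (86.7%), with 23 members whose median share was 11.3% and whose highest was 23.5%. Of the 23, 7 hold a whole intron. By alignment-based level, 0 of these 23 were the highest transcript of their gene. Srsf2-203 stood at 34.2 and 30.6 TPM, 25.4% and 21.7% of the gene, below the coding transcript Srsf2-201 at 83.4 and 99.3 TPM. Srsf7-206 holds intron 3 and stood at 17 and 15.9 TPM, 19.0% and 18.9%, although 0 stretches of 31 bases are its own. Srsf5-212 holds intron 6 and was less even, at 28.4 TPM in replicate 1 and 15.0 TPM in replicate 2. Srsf11 holds 5 members, and the class took 64.7% and 72.6% of the gene.

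Whether a gene hosts a member depended on its level, since a transcript must reach 5 TPM. Among eligible genes of 5 to 20 TPM 1.75% host a member, at 20 to 50 TPM 12.1%, at 50 to 100 TPM 27.9%, at 100 to 200 TPM 41.3% and above that 56.4%. The class share of hosts ran from a median of 55.9% in the lowest of these bins to 8.78% in the highest. The threshold bounds these shares from below, because a member at 5 TPM is at least 25% of a gene of up to 20 TPM and 2.5% of a gene at 200 TPM. How far this bound accounts for the order was not tested. Set beside genes of like level, SR proteins (86.7% of genes, median 105.3 TPM), the detained intron list (70.6%) and the kinases and cyclin L genes (5 of 10, 43.1 TPM) lay above their bin. Core spliceosome genes did not, with 10 of 36 genes (27.8%, 53.2 TPM), nor did hnRNP genes, with 7 of 18 (38.9%, 122 TPM). Tubulins and microtubule-associated proteins hosted members in 12 of 20 cases, at a median of 337 TPM where 56.4% of genes do. Cytoplasmic ribosomal protein genes lay below theirs, with 19 of 67 (28.4%, 340 TPM). Aminoacyl-tRNA synthetases held a member in 1 of 20 genes (5.0%), at a median of 44.85 TPM where 12.1% of genes do. Chaperones held one in 4 of 37 (10.8%), at 57.5 TPM where 27.9% do. The first 3 of these lists also have more annotated retained_intron transcripts per eligible gene, with medians of 3, 3 and 4 against 2 in every level bin. Aminoacyl-tRNA synthetases and chaperones, which lay below their bins, also have more, with medians of 3.5 and 3. Whether this number bears on hosting a member was not tested. These positions are counts, and no test of a list was made.

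**Figure D4:**
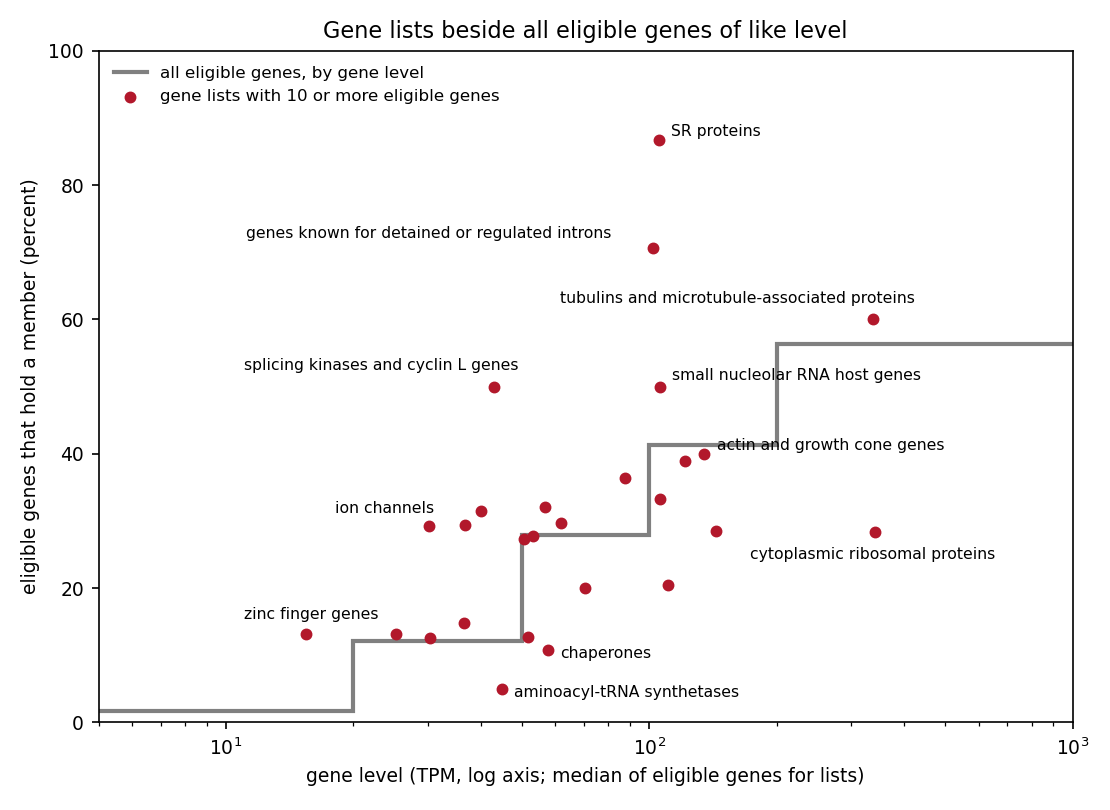
Percent of eligible genes that hold a member (vertical) against gene level in TPM (horizontal log axis), as steps for all 6471 eligible genes by level and as points for gene lists with 10 or more eligible genes, placed at their median level. SR proteins at 86.7% and the detained intron list at 70.6% lie above the step of 41.3%, and cytoplasmic ribosomal proteins at 28.4% lie below the step of 56.4%.

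Genes of synapses and ion channels also held members, and Kcnt1 was among those where the member exceeded the coding transcript. Gria2 encodes the AMPA receptor subunit that sets calcium permeability, and its 3 members include Gria2-206 at 37.5 and 38.6 TPM and Gria2-204 at 29.5 and 30.01 TPM. Gria2-204 holds intron 10 of 440 bases and took 15.4% and 17.4% of the gene, against 44.98% and 43% for the coding transcript Gria2-202. Kcnt1 encodes a sodium-activated potassium channel. Kcnt1-206 holds intron 4 of 1990 bases and 1931 stretches of 31 bases of its own, stood at 9.77 and 10.6 TPM and exceeded the coding transcript Kcnt1-201 at 4.44 and 5.81 TPM. Dlgap4-208, of a postsynaptic scaffold gene, stood at 22.3 and 14.2 TPM. Postsynaptic density genes hosted members in 8 of 22 cases, with a median share of 11.01%, and vesicle and release genes in 7 of 21, with 9.63%. These are 36.4% at a median level of 87.7 TPM, where 27.9% of genes host a member, and 33.3% at 105.8 TPM, where 41.3% do. The medians lie on opposite sides of the bin edge at 100 TPM, so the bins differ though the lists are close in level. Of 9 members in vesicle and release genes, 0 hold a whole intron. Ion channel genes hosted members in 12 of 41 cases (29.3%) at a median level of 30.2 TPM, where 12.1% of genes of 20 to 50 TPM do.

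Further groups add single cases of high share. Ncl encodes nucleolin and carries small nucleolar RNAs in its introns. Ncl-202 holds introns 9 and 10, stood at 78.7 and 83.1 TPM and took 63.2% and 63.9% of the gene, above the coding transcript Ncl-201 at 25.2 and 27.2 TPM. Ncl-202 has 3072 bases against 8202 for Ncl-201. Of the stretches of 31 bases in Ncl-202, 67.1% are shared with other transcripts of Ncl alone. How reads of shared exons were divided between the models was not tested. Small nucleolar RNA host genes held members in 7 of 14 cases, at a median level of 105.9 TPM where 41.3% of genes do, and 12 of their 16 members hold a whole intron. Zinc finger genes hosted members in 18 of 136 cases (13.2%), with a median share of 29.5% over 20 members. Their median level was 15.5 TPM, where 1.75% of eligible genes of 5 to 20 TPM host a member. At that level the threshold admits only large shares in most zinc finger genes. Zfp57-210, of a factor that guards imprints, stood at 34.4 and 30.4 TPM, 31.6% and 31.8% of the gene. Genes of RNA export, cleavage and decay hosted members in 11 of 35 cases (31.4%), at a median level of 40.005 TPM where 12.1% of genes do, and in Thoc1, of the export complex, the class took 93.8% and 93.1% of the gene. Pfkp, of the glycolytic enzyme phosphofructokinase, holds the longest of the high members, Pfkp-212 of 8681 bases, at 93.5 and 79.3 TPM and 33.1% and 31.7% of the gene.

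Small RNA genes lie wholly inside 28 members and number 39 in all. Eif4a2-218 contains Snora81 and Eif4a2-211 contains Snord2, Gas5-222 contains Snord78 among others, and Rplp2-205 contains Snora52. Reads of the small RNA could be counted for the transcript around it, and whether they were was not tested. The quantifications differed 2-fold or more for 39.3% of these 28 members, and 10 were higher in the other quantification. The same held for 17.8% of all members and 13.5% of passing transcripts, and for 25.2% of members of 600 to 1000 bases and 8.99% of those of 1000 to 2500 bases, while these 28 had a median length of 1006.5 bases. AC121821.1-204, around Snora74a, averaged 7.41 TPM in the alignment-based tables and 198 TPM in the other, and Rps20-202, around Gm24016, averaged 46.4 and 437 TPM. AC121821.1-204 has 708 bases and Rps20-202 has 512. Of their stretches of 31 bases, 45.4% and 53.9% also occur in other genes.

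The animals were alike in most members. The share differed by 1.34 percentage points at the median, and its Spearman correlation between animals across members was 0.969, a description over 1242 members that share 2 libraries. Levels differed 2-fold or more for 11 members, 4 higher and 7 lower in replicate 2. That is 0.886%, against 0.73% of passing transcripts of any class in either direction, 0.369% higher and 0.361% lower. The direction was the same in the other quantification for 11 of the 11, and 2-fold or more for 4. No host gene of these differed 2-fold. Prrt1-202, of a synaptic membrane protein gene, stood at 13.2 TPM in replicate 1 and 5.31 TPM in replicate 2, with shares of 33.8% and 15.0%. Nsmf-208, of a synapse-to-nucleus messenger gene, stood at 8.38 and 19.7 TPM. Calr-204, of the chaperone calreticulin, stood at 24.3 and 9.95 TPM, but at 92.7 and 79.6 TPM in the other quantification. With 1 animal on each side these are differences between 2 libraries, and no p-value applies.

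A share difference of 10 points or more was found for 20 members (1.61%), 9 of them higher in replicate 2. Among passing transcripts of any class 7.76% differed so, 3.92% higher and 3.83% lower in replicate 2. Their median share was 47.7%. The direction was the same in the other quantification for 18, and 6 kept a difference of 10 points. Ipo9-210, of an importin gene, took 11.4% and 21.9%, and 11.6% and 22.2% in the other quantification, with 517 own stretches of 31 bases. Ccnl1-204 took 14.2% and 24.3%, and 13.9% and 28.3% in the other. Wdr73-205, which has 0 such stretches, took 55.0% and 29.1%, while the other quantification gave 39.9% and 41.2%.

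The choice of quantification moved members more than the choice of animal. After both were scaled to the same transcripts, 221 members (17.8%) differed 2-fold or more, 199 higher and 22 lower in the other quantification. Among all passing transcripts 13.5% did, 12.1% higher and 1.42% lower, and their median was shifted by 0.48 on the log2 scale, against 0.53 for members. With each ratio taken relative to that shift, 159 members differed 2-fold, 98 higher and 61 lower, against 8.7% of passing transcripts, 5.4% higher and 3.3% lower. The difference went with length in members and in all classes: 36.2% of members under 600 bases and 3.27% of those of 2500 bases or more differed, against 42.6% and 6.83% of passing transcripts of like length. Members that begin inside an intron differed most often, 32.6% of 341, and those with a whole intron least often, 11.4% of 437. These kinds also differ in length, with medians of 717 and 1791 bases. Within 600 to 1000 bases the shares were 34.7% and 21.9%, and within 1000 to 2500 bases 9.62% and 10.3%. Effective length, the part of a transcript on which reads can start, was the length less 99 bases in the alignment-based tables and less 347 bases at the median in the other, which touches short transcripts most. Whether this bears on the difference between the quantifications was not tested.

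**Figure D5:**
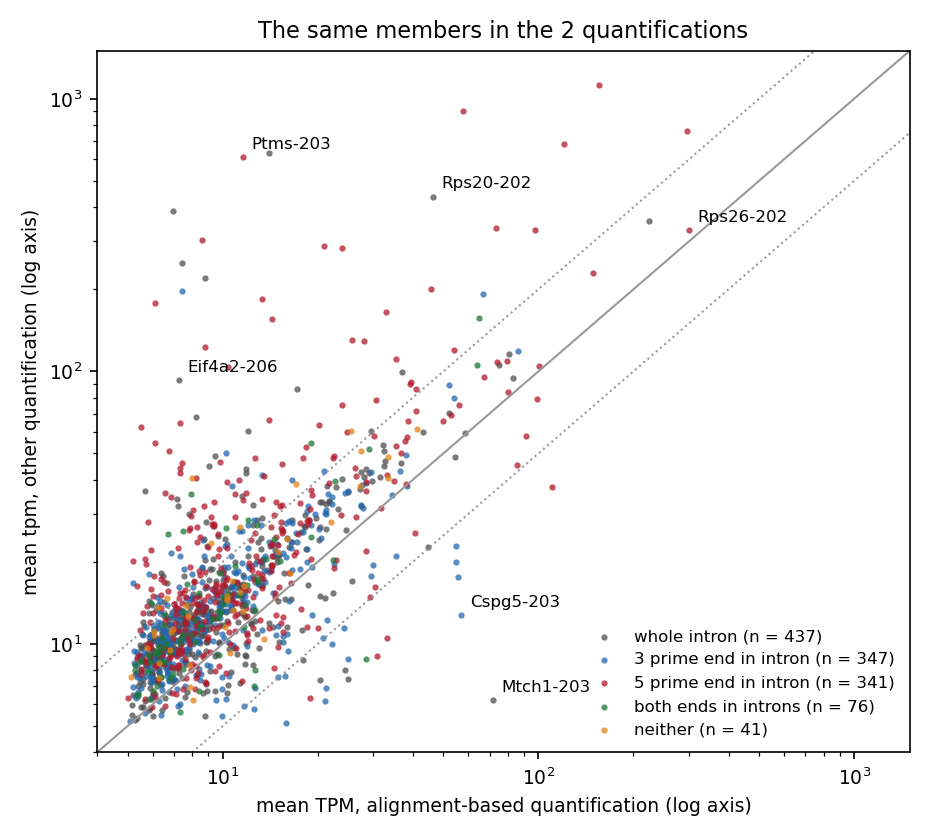
Mean level of each member in the alignment-based quantification (horizontal, TPM) and in the other quantification (vertical, tpm), both log axes, coloured by how the member meets the gene's introns. The solid line is equality, the dotted lines are 2-fold, and points far above them, such as Ptms-203, include 107 of the 199 members that were 2-fold higher and begin inside an intron.

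Members far higher in the other quantification included short transcripts of abundant genes. Cox6a1-202, of a cytochrome oxidase subunit, stood at 8.60 and 5.29 TPM in the alignment-based tables and at 356 and 418 TPM in the other, and its share went from 3.32% and 1.99% to 85.9% and 91.1%. Ptms-203, of the chromatin protein parathymosin, stood at 12.8 and 10.5 TPM and at 599 and 622 TPM. Tubb5-204, of the main beta-tubulin of young neurons, stood at 57.1 and 58.3 TPM and at 880 and 922 TPM, so 4.52% and 4.46% of the gene became 39.0% and 38.3%. In the opposite direction, Mtch1-203, of a mitochondrial carrier gene, stood at 69.9 and 73.4 TPM and at 5.59 and 6.84 TPM, and Cspg5-203, of a brain proteoglycan, at 54.5 and 59.5 TPM and at 14.7 and 10.8 TPM. Within each table the animals lay closer to each other than the tables did.

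Members differ in how much sequence is theirs alone. The median member holds 262.5 stretches of 31 bases that no other annotated transcript has, 104 members hold none, and 935 hold 100 or more. The quantifications differed 2-fold for 20.2% of the 104 and for 17.6% of the other 1138. Of the 935, 73 were the highest transcript of their gene and 48 were so in both quantifications. In 66 members at least 50% of all such stretches also occur in another gene. Exons of a gene on the opposite strand overlap 144 members and exons of another gene on the same strand overlap 82, and the use of strand in counting is not given in the sources used here. The authors' interval for a member's TPM had a width of 42.6% of the TPM at the median in replicate 1 and 42.2% in replicate 2. It is not centred on the TPM, which lay outside it for 5 members in each library. Expected counts, the reads assigned to a transcript, ran from 30.2 to 13663 in replicate 1 and had a median of 187, in a library of 26793219 such counts. The library of replicate 2 held 29388090.

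Just inside the threshold lay Gfra4-208, Ptprd-208 and Trrap-214, each with a lowest value of 5.0 TPM, and just outside lay Odf2-219, Rbm17-204 and 1810026B05Rik-207, each with a lowest value of 4.99 TPM. The tissue label was set against marker genes. Neurod6, Slc17a7, Tbr1 and Emx1 of cortical excitatory neurons stood at 23.84 to 159.15 TPM, and Gad1, Gad2 and Sst of interneurons at 14.66 to 141.47 TPM. Astrocyte and early oligodendrocyte lineage markers were present. The myelin gene Mog was at 0.11 and 0.06 TPM, and its level does not stand for other myelin genes. Alb of liver and Ckm of muscle were below 1 TPM in both libraries. Which cells made a member was not tested.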

How the data were processed

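Per the file headers, the authors deposited for each library a transcript table with expected counts, TPM and each transcript's share of its gene in percent (called alignment-based here, since the deposited notes trace it to transcriptome alignments) and a transcript table with estimated counts and TPM (called the other quantification), besides a gene table with TPM that served for the tissue check. The deposited notes name mm10 and GENCODE M21. The sources used here name no aligner, quantifier or strand setting. Replicate numbers come from the labels. How far reads of the CAST allele were lost against mm10 was not tested.

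Tables were joined by transcript identifier over 141767 annotated transcripts. The 97 rows found only in the other tables, ERCC spike-ins among them, were left out. Members and the 28 gene lists were chosen with earlier results of these data known. Named members are, by rule, the 12 highest by level and by share, up to 3 per list, all members of the detained intron list, the 5 most different each way between animals and between quantifications, the 5 hosts with the most members and the 3 on each side of the threshold. Others (Tcea2-206, Wdr73-205, Ccnl1-204, AC121821.1-204, Rps20-202, Gas5-222, Rplp2-205, Thoc1 and the printed introns) were named after their values were seen.

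Fold ratios used TPM + 0.1 and a 2-fold rule. Library scaling by TMM used edgeR 4.0.16 in R 4.3.3. SD is over 2 animals. No p-value was computed: there is 1 group, and the rule used the levels. Gene models and sequences were read with Python 3.11.15 from GENCODE M21. An intron counts as held when it lies inside 1 exon of the member; of overlapping introns the shortest was kept. Some members and markers are not reported here. The fold rule and intron bookkeeping were tested on simulated data. Intervals cover counting error only. The alternatives tried were other TPM minimums, either quantification alone, each library left out, another pseudocount, TMM scaling, a count minimum, and centring or a minimum of own sequence, the last 2 chosen after seeing the data.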

Additional observations from a re-analysis of the deposited data

How the results depend on the processing

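The number of members followed the threshold: 4493 at a TPM minimum of 2, 363 at 10 and 2966 with the other quantification alone, or 20.6%, 1.66% and 13.6% of the class. The median share was 9.18% at a minimum of 2, 17.7% at 10, 13.5% with the alignment-based tables alone, 8.82% with the other alone, 12.6% when recomputed from the other tables and 12.7% from posterior means. Members that were the highest transcript numbered 203 at a minimum of 2, 73 at 10, and 73 among those with 100 or more own stretches of 31 bases. Eligible genes that hold a member were 38.5% at a minimum of 2 and 5.57% at 10. Of the 21 gene lists above the background, 21 were above it at 2 and 18 at 10. With a pseudocount of 1, 6 members differed 2-fold between animals, and 30 did by the other tables. Leaving out 1 library gave 1471 to 1700 members, 6.73 to 7.78% of the class, a median share of 12.4 to 12.7%, 178 to 179 highest transcripts, 51 to 55 members at 50% or more and 228 to 239 differing between quantifications. Of 46 alternative values, 25 stayed within 1.5 times the main count or 1 SD of the main value. TMM scaling moved the members' median log2 ratio between animals from -0.09 to 0.01. No paired analysis was possible because there is 1 group. With 2 animals, the spread between animals is known only roughly.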
